A study of Drosophila melanogaster with 13 samples.

Results

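The regions described here are 2840 stretches of chromatin that were open in normal *Drosophila melanogaster* eye-antennal discs and were called as a peak in no tumor. They were chosen from the peaks of all samples merged into 1 list. A merged peak was taken when it overlapped, by at least 1 bp, a called peak in each of the 3 wild type ATAC-seq samples and no called peak in any of the 4 tumor samples. They are 7.78% of the 36506 merged peaks with counts and 17.4% of the 16342 merged peaks called in all 3 wild types. The other 13502 of these were called in at least 1 tumor and are referred to below as retained peaks. Since calls in tumors and in wild type ATAC-seq samples chose the lost peaks, their difference between these samples is given as a description, with no test. Positions are those of the dm3 genome, counted from 1.

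The tumors were RasV12; scrib-/- discs. One parent carried y,w,eyFlp with act>y+>Gal4 and UAS-GFP, and FRT82 with Tub-Gal80, and the other y,w with UAS-RasV12 and the FRT82,scrib2 chromosome, so that a recombinase driven in the eye disc makes clones of cells that lose the polarity gene *scrib* and express oncogenic Ras. Early tumors, Upd and wild type discs came from wandering larvae, the stage before pupation, when tumor discs still contain normal tissue. Late tumors share this stage label, but by the study's methods they were collected days later from larvae that persist without pupating. They were thus older than the wild types they are set against, and age and tumor stage cannot be told apart. In the Upd samples, (GMR-gal4) x (UAS-UPD:GFP), GMR-Gal4 drives Upd, a ligand of the JAK/STAT pathway, in cells of the differentiating eye. The wild types were the strains w;;FRT82, DGRP-208, Optix-GFP and CantonS. ATAC-seq, in which a transposase cuts accessible DNA, was done on 1 late tumor, 1 early tumor, 2 Upd and 3 wild type samples, of the strains DGRP-208, FRT82 and Optix-GFP, each labelled as 10 discs, although for late tumors the study's methods give a smaller number. FAIRE-seq, which recovers DNA that formaldehyde leaves free of protein, was done on 1 late tumor, 1 early tumor and 2 wild type samples (FRT82 and CantonS) of 200 discs. CTCF ChIP-seq was done on 1 sample of CantonS discs, with an input. Each wild type sample is 1 strain, so the spread between wild types includes strain differences.

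Accessible chromatin marks promoters, enhancers and insulators, where bound proteins displace nucleosomes. In the larval eye-antennal disc, cells behind a moving furrow become photoreceptors under the retinal determination genes, Notch and EGF receptor signaling, while the antennal part is patterned by limb genes. The steroid ecdysone then drives the disc towards eversion and secretion of cuticle. Enhancers of such genes are open in some cell types and closed in others, and these samples pool all cells of a disc. A region open in fewer cells and a region less open in each cell therefore cannot be told apart.

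Between 2375435 and 10871706 reads per sample fell in merged peaks, the most in the late ATAC-seq tumor and the fewest in the FRT82 FAIRE-seq sample. Samples of a group differed by more than counting error, with chi-square values of 2.85 to 12 for each degree of freedom, so none was a copy of another. Levels are given as CPM, read counts scaled to depth with TMM factors over the 11 open chromatin samples, and are per peak, not per length. Counting intervals cover counting error only.

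The lost peaks were low in all 4 tumor samples and at similar levels in Upd and wild type samples. By ATAC-seq their median level was 6.38 CPM in the late and 6.24 CPM in the early tumor, 18.3 and 17.7 CPM in the Upd samples, and 19.3, 19.2 and 21.1 CPM in the FRT82, DGRP-208 and Optix-GFP wild types. By FAIRE-seq the median was 5.71 CPM in the late and 7.43 CPM in the early tumor, and 12.3 and 11.1 CPM in the FRT82 and CantonS wild types. The median lost peak thus had 60 reads in the late and 29 reads in the early ATAC-seq tumor, and between 129 and 145 reads in the ATAC-seq wild types. No lost peak was without reads in any ATAC-seq sample. Together the lost peaks held 1.84% and 1.78% of the reads in merged peaks of the late and early ATAC-seq tumors, 6.77% and 6.54% in the Upd samples, and between 6.95% and 7.36% in the wild types. Retained peaks had medians of 38.4 and 39.8 CPM in the late and early ATAC-seq tumors and between 39.3 and 42.4 CPM in the ATAC-seq wild types.

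**Figure D1:**
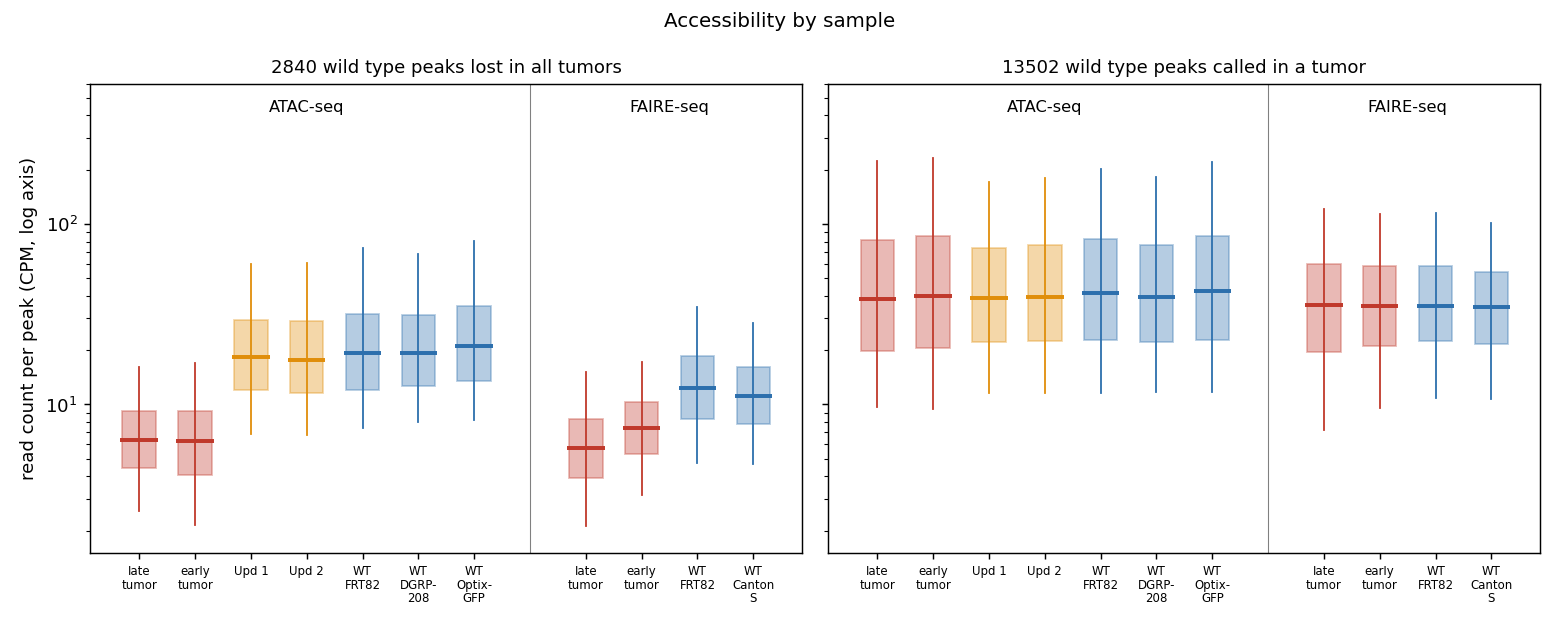
Read count per peak (CPM, log axis) in each sample for the 2840 lost peaks (left) and the 13502 retained peaks (right). The thick line is the median, the box spans the 25th to 75th percentile and the thin line the 5th to 95th. At lost peaks the ATAC-seq medians of the tumors lie at 6.38 and 6.24 CPM, those of Upd at 18.3 and 17.7 CPM and those of wild types between 19.2 and 21.1 CPM, while at retained peaks all samples lie close together.

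The loss of a call did not mean the loss of all signal. Relative to the mean of the 3 wild types, the median lost peak kept 30.1% of its level in the late and 28.9% in the early ATAC-seq tumor. It kept 47.1% of the FAIRE-seq wild type mean in the late and 62.2% in the early FAIRE-seq tumor. Between the 5th and the 95th percentile of the lost peaks, the ratio to the wild type mean ran between 0.114 and 0.68 in the late and between 0.104 and 0.65 in the early ATAC-seq tumor. At the other end, 13 lost peaks in the late and 9 in the early ATAC-seq tumor reached the wild type mean although no peak was called there. The median over the 848 merged peaks called in all 4 tumors and in no wild type ATAC-seq sample was 29.3 CPM in the ATAC-seq tumors and 6.35 CPM in the ATAC-seq wild types.

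The limits of the choice fell within a gradual series. Median ATAC-seq levels at lost peaks were 6.25 CPM over the tumors and 20.1 CPM over the wild types. At the 944 peaks called in all 3 wild types and in exactly 1 tumor they were 11.2 CPM in tumors and 22.7 CPM in wild types. Of those 944 peaks, 451 were called only in the late ATAC-seq, 342 only in the early ATAC-seq, 30 only in the late FAIRE-seq and 121 only in the early FAIRE-seq tumor. Just outside on the wild type side, the 1822 peaks called in 2 of the 3 wild types and in no tumor had 4.12 CPM in tumors and 9.06 CPM in wild types.

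In the fits across all merged peaks (edgeR's quasi-likelihood test, adjusted p under 0.01), which describe the contrast that chose the peaks, 2007 lost peaks were lower in tumors over both techniques, 2132 by ATAC-seq and 131 by FAIRE-seq. None was higher in these fits or by DESeq2, and at an unadjusted p under 0.05 the edgeR fits had 0, 0 and 1 higher. Over all merged peaks, 12.5% were lower and 11.6% higher over both techniques, 12.8% lower and 13.5% higher by ATAC-seq, and 0.781% lower and 1.58% higher by FAIRE-seq. The median log2 fold change of tumor over wild type at lost peaks was -1.36 over both techniques, -1.73 by ATAC-seq and -0.80 by FAIRE-seq, beside medians of -0.03, 0.00 and 0.01 over all merged peaks. By ATAC-seq 2763 lost peaks were lower in both tumors than in every wild type (29.4% of all merged peaks were), and by FAIRE-seq 2264 were (28.4% of all). The counts rest on few tumor samples. Over both techniques 1175 lost peaks were lower without the late ATAC-seq tumor, beside 2351 of all 36506 merged peaks. Without the early ATAC-seq tumor 1190 were, beside 2389 of all. Within 1 technique such fits leave 1 sample in a group, so only fold changes are given. By ATAC-seq the median log2 fold change at lost peaks was -1.78 without the late and -1.73 without the early tumor. By FAIRE-seq it was -0.65 without the late tumor, -1.03 without the early tumor and -0.92 without CantonS.

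**Figure D2:**
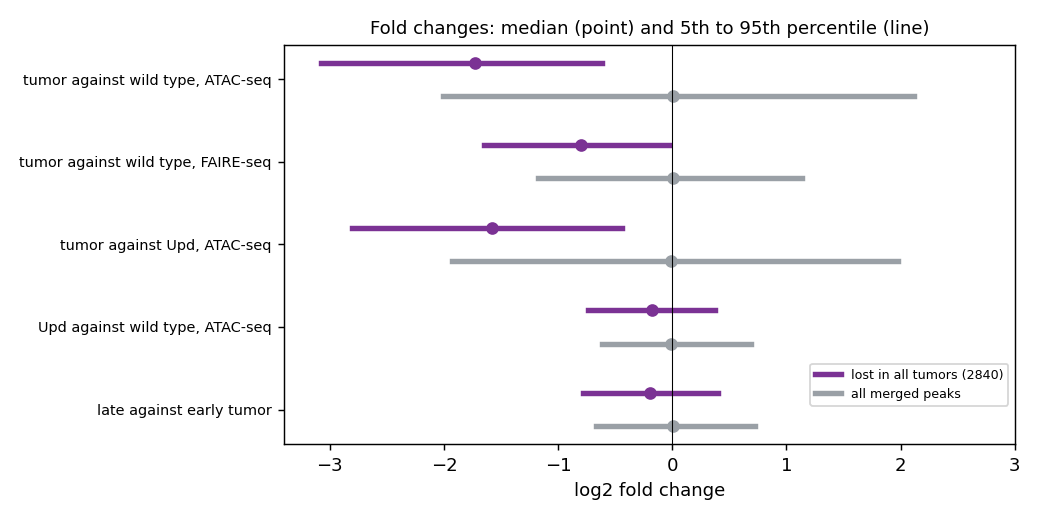
Log2 fold changes for the 2840 lost peaks (purple) and all merged peaks (grey) in 5 comparisons. Points are medians and lines span the 5th to 95th percentile. The lost peaks lie far below 0 in the comparisons of tumors with wild type or Upd, whose tumor and wild type calls chose them (medians -1.73, -0.80 and -1.58), and near 0 for Upd against wild type (-0.18) and for late against early tumor (-0.19).

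In normal discs the lost peaks were of moderate height. Their spread between strains is a description, since a call in each of the 3 strains was part of the rule. The median coefficient of variation over the 3 ATAC-seq wild types was 18.3%, beside 16.4% at retained peaks, and 90.0% of the lost peaks differed by less than 2-fold between the highest and the lowest strain. The strains differed by 4-fold or more at 7 lost peaks. The peaks were short, with a median of 327 bp against 470 bp for retained peaks. Per length they were also lower, with a median of 60.4 CPM per kb in wild types against 91.0 CPM per kb at retained peaks. Of the 2840, 309 had a mean wild type ATAC-seq level under 10 CPM, 1107 between 10 and 20, 945 between 20 and 40, 369 between 40 and 80, and 110 over 80 CPM.

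The wild type FAIRE-seq calls were not used in the choice, but the FAIRE-seq tumor calls were. A lost peak could hold no FAIRE-seq call in a tumor, while a retained peak could enter through one, so the rule itself favors peaks that FAIRE-seq calls less often, and the contrast with retained peaks is a description. Of the lost peaks, 353 (12.4%) were called in both wild type FAIRE-seq samples, 528 (18.6%) in 1 and 1959 (69.0%) in neither, whereas 76.9% of retained peaks were called in both. The difference was present at every height. Between 20 and 40 CPM, 34.1% of lost and 86.6% of retained peaks were called in at least 1 wild type FAIRE-seq sample, and over 80 CPM 86.4% and 99.2% were. Lost peaks thus were open by ATAC-seq in 3 strains and mostly below the FAIRE-seq calling limit in the same tissue. FAIRE-seq levels at the 353 doubly called peaks had a median of 10.5 CPM over the tumors and 24.9 CPM over the wild types. At the 1959 peaks without a FAIRE-seq call the medians were 5.68 CPM in tumors and 9.65 CPM in wild types.

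CTCF is an insulator protein, and its ChIP-seq peaks were also outside the choice. They overlapped 77 of the lost peaks, 2.71% (95% Clopper-Pearson interval 2.15 to 3.38), and 1956 retained peaks, 14.5% (13.9 to 15.1). The intervals treat peaks as independent. At lost peaks the share was between 2.44% and 2.91% in each of the 5 height classes. At retained peaks it was 8.26% under 10 CPM and 19.0% over 80 CPM. When 40% of the CTCF peak had to be covered, 49 lost peaks (1.73%) and 12.2% of retained peaks overlapped. The 77 lost peaks over CTCF had medians of 6.37 CPM in ATAC-seq tumors and 20.2 CPM in ATAC-seq wild types, close to those of all lost peaks.

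**Figure D3:**
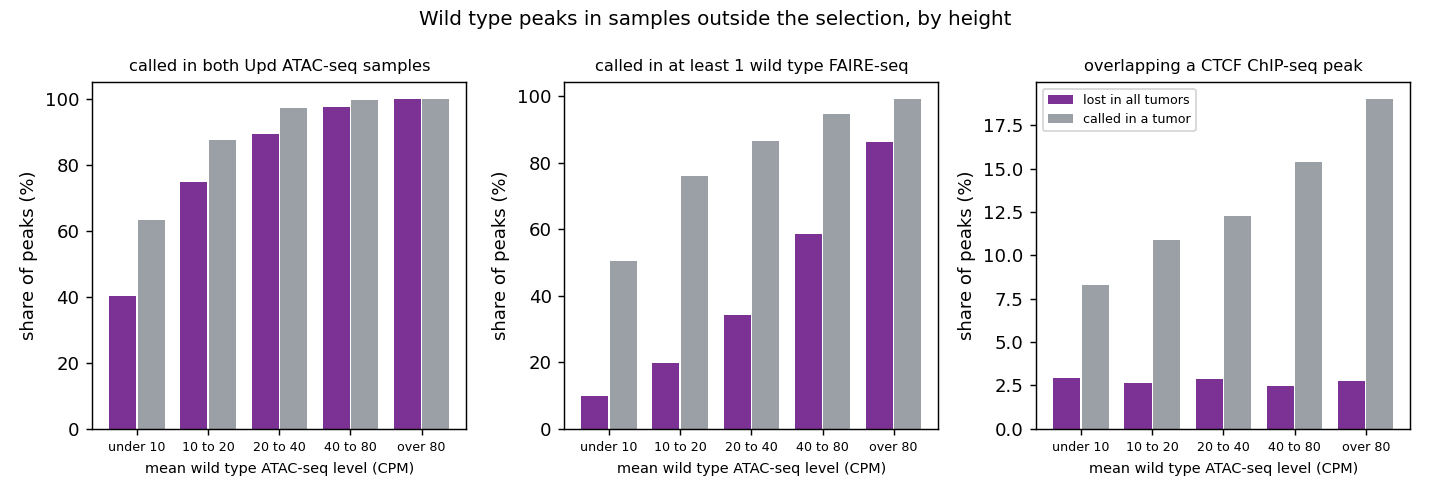
Share of peaks (%) called in both Upd samples, in at least 1 wild type FAIRE-seq sample, or overlapping a CTCF peak, for lost (purple) and retained (grey) peaks in 5 classes of mean wild type ATAC-seq level. The share over CTCF stays between 2.44% and 2.91% for lost peaks and lies between 8.26% and 19.0% for retained peaks, and the FAIRE-seq share is lower for lost peaks in every class.

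The Upd discs carry neither RasV12 nor the loss of *scrib*, and the comparison asks whether the lost peaks were also reduced in another genotype. Most were called there, though less often than retained peaks. Both Upd samples had a called peak at 2266 lost peaks (79.8%, interval 78.3 to 81.3) and at 96.2% (95.8 to 96.5) of retained peaks. In 1 Upd sample 400 lost peaks (14.1%) were called, and in neither 174 (6.13%), beside 0.785% of retained peaks in neither. Between 10 and 20 CPM in wild type, 74.8% of lost and 87.4% of retained peaks were called in both, and between 40 and 80 CPM 97.6% and 99.5%. Over 80 CPM in wild type, 110 of 110 were called in both. The 174 peaks without an Upd call were low ones, 146 of them under 20 CPM in wild type, with medians of 7.81 CPM in Upd and 11.6 CPM in wild type. Of the 2840, 1 was lower in Upd than in wild type (0.011% of all merged peaks tested were lower) and 0 were higher (0.00548% of all were) by edgeR's quasi-likelihood test at an adjusted p under 0.01. DESeq2 called 4 lower and 0 higher, beside 31 lower and 14 higher of 36499 merged peaks tested. At an unadjusted p under 0.05, 333 lost peaks (11.7%) were lower and 35 (1.23%) higher, beside 3.93% and 3.13% of all merged peaks. Among retained peaks 5.86% were lower and 1.44% higher at that limit.

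A small general reduction accompanied these calls. The median log2 fold change of Upd over wild type was -0.18 at lost peaks, -0.08 at retained peaks and -0.01 over all merged peaks. Relative to the wild type mean, the median lost peak had 88.4% and 86.0% of the level in the 2 Upd samples. Both Upd samples lay below all 3 wild types at 822 lost peaks (28.9%, against 19.2% of retained and 12.9% of all merged peaks). They lay above all 3 at 153 (5.39%, against 7.82% of retained and 12.1% of all). The wild type samples of this comparison also had to hold a call for a peak to be chosen, at lost and retained peaks alike. The part of that in the reduction was not tested. Scaling by total counts moved the median over all peaks to 0.10 and that of the lost peaks to -0.07, so that relative to all peaks the lost peaks stayed lower.

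Set against Upd, the 2 ATAC-seq tumors were lower than both Upd samples at 2724 lost peaks (36.5% of all merged peaks were). By the edgeR fit 2157 were lower, beside 16.0% of all, and 0 were higher, beside 16.3% of all. DESeq2 had 0 higher too, and 3 were higher at an unadjusted p under 0.05 by edgeR. The median log2 fold change of tumor over Upd was -1.58. The tumor samples were used in the choice, so these counts are again a description.

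The lost peak that fell in Upd was that of *tmod*, which encodes tropomodulin, a cap of actin filament ends in muscle and other cells (3R, 26393225 to 26393498). It had 3.19 and 3.44 CPM in the late and early ATAC-seq tumors, 9.05 and 7.49 CPM in Upd, and 38.4, 43 and 35 CPM in the FRT82, DGRP-208 and Optix-GFP wild types. Tumors, Upd and wild types did not overlap. The log2 fold change of Upd over wild type was -2.22 ± 0.25 (SE, edgeR adjusted p = 0.00733), and both Upd samples were below all 3 wild types. The call was lost with total counts, without FRT82, without DGRP-208 and without either Upd sample, where the log2 fold change stayed between -2.35 and -2.10. The neighboring lost peak, 26392922 to 26393122, had 2.98 and 2.80 CPM in the tumors, 9.72 and 11 CPM in Upd, and 28.6, 25 and 27.8 CPM in wild types. It was called by DESeq2 alone and was named after its values were seen. The next retained peak of that stretch, 26395731 to 26396441, had 29.7 and 40.9 CPM in the tumors, 79.9 and 74.7 CPM in Upd and 70.7, 79.5 and 58.6 CPM in wild types, so that the Upd samples did not lie below the wild types there.

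The other lost peaks at the extremes of the Upd comparison did not pass the test. A peak on 3R, 18972359 to 18972880, had 32.3 and 31.4 CPM in the tumors, 23 and 22.8 CPM in Upd and 76.4, 48.3 and 104 CPM in wild types (log2 fold change of Upd over wild type -1.72 ± 0.30, edgeR adjusted p = 0.11). Both tumors were higher than both Upd samples there. On 2R, 6851507 to 6852030, the levels were 7.34 and 7.10 CPM in the tumors, 13.2 and 14.3 CPM in Upd and 27.7, 32.7 and 50.9 CPM in wild types (-1.41 ± 0.29, edgeR adjusted p = 0.24). The 2 remaining peaks of the lowest 5 had log2 fold changes of -1.73 and -1.49. At the upper end, a peak on 3R, 25137854 to 25138431, had 9.57 and 12.9 CPM in the tumors, 54.9 and 48.4 CPM in Upd, and 22.0, 29.0 and 32.7 CPM in wild types (0.90 ± 0.23, edgeR adjusted p = 0.42). The highest 5 had log2 fold changes between 0.82 and 0.96, and in all 5 both tumors were lower than every wild type by ATAC-seq, with the 2R peak 15662163 to 15662546 at 4.15 and 6.02 CPM in tumors, 23.1 and 20.2 CPM in Upd and 9.14, 12.6 and 11.8 CPM in wild types.

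Late and early tumors differed at lost peaks in FAIRE-seq but not in the same way in ATAC-seq. By FAIRE-seq 2197 lost peaks (77.4%) were lower in the late than in the early tumor, with a median log2 ratio of -0.32 (on CPM plus 1), while 49.7% of all merged peaks were lower and their median was 0.00. By ATAC-seq 1237 lost peaks (43.6%) were lower in the late tumor and the median was 0.05, beside 46.1% and 0.04 over all merged peaks. In both techniques 1025 (36.1%) were lower in the late tumor, beside 31.7% of retained and 25.4% of all merged peaks. There is 1 sample per stage and technique, so the difference within a technique has no replicate check. In the fit over both techniques 0 lost peaks were lower (0% of all merged peaks) and 0 higher (0% of all) in late than in early tumors by edgeR's quasi-likelihood test, with 73 lower and 5 higher at an unadjusted p under 0.05, beside 2.18% and 1.93% of all merged peaks. DESeq2 called 0 as well. The median log2 fold change of -0.19 became 0.31 without the early FAIRE-seq tumor and -0.62 without the early ATAC-seq tumor.

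The study's own table holds 282 pairs of a gene and a region that both went down in tumors, the region in an intron or shortly upstream of the gene. Of these closing pairs, 147 (52.1%) concern lost peaks. They name 144 different lost peaks. None of its 215 opening pairs is a lost peak. The study chose the regions on these samples, so their direction is not independent evidence. Regions were assigned to genes by position, and the lower expression of the genes came from public array data, which were not examined here. The 144 paired peaks were higher in wild type than the other 2696 lost peaks, with medians of 34.5 and 19.5 CPM, and had tumor medians of 6.5 and 6.21 CPM. Both Upd samples had a call at 130 of them, and both wild type FAIRE-seq samples at 51. All genes of the 9 lists of disc genes used below are in the closing pairs, except in the ecdysone list, where 9 of 10 are. Summed over the lists, 50 of 100 genes had a lost peak, near the 52.1% of all closing pairs. The counts per list are thus shares of closing genes and not of a pathway. Of the 9 lists, 8 held at least 1 lost peak, with 49 in all. Of these, 44 were called in both Upd samples and 24 in at least 1 wild type FAIRE-seq sample. By the edgeR test 1 (*tmod*) was lower in Upd. All 49 were lower in tumors in the fit over both techniques, as were all 144 paired peaks, which the study had chosen as closing. In the FAIRE-seq fit 14 of the 49 were lower, and 36 of the 144. Over all merged peaks 12.5% were lower over both techniques and 0.781% by FAIRE-seq. Values are given for up to 4 peaks of each list, the highest in wild type, and for *eya*, *toe*, *neur*, *lola* and *Osi6*, which were added after their values were seen.

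Of 10 genes of the ecdysone response, 4 had a lost peak, at 3 positions, with median log2 fold changes of -2.81 for tumor over wild type and -0.41 for Upd over wild type. The peak of *Eip78C*, which encodes an ecdysone-induced nuclear receptor (3L, 21231417 to 21232235), had 12.8 and 9.25 CPM in the late and early ATAC-seq tumors, 83.1 and 92.8 CPM in Upd and 110, 103 and 140 CPM in the FRT82, DGRP-208 and Optix-GFP wild types. By FAIRE-seq it had 7.83 and 9.58 CPM in tumors and 38.8 and 31.8 CPM in the FRT82 and CantonS wild types. Tumors were below every other sample in both techniques (log2 fold change over both -2.81 ± 0.28, SE). The peak paired with both *ImpE2*, an ecdysone-inducible gene of everting discs, and *Eip63E*, which encodes a cyclin-dependent kinase (ImpE2/Eip63E, 3L, 3513377 to 3513774), had 6.06 and 3.44 CPM in tumors, 56.6 and 56.8 CPM in Upd and 122, 82.6 and 100 CPM in wild types. It had the lowest log2 fold change of all lost peaks with at least 10 reads on average, -3.79 ± 0.33, and was intermediate in Upd (-0.83 ± 0.21, edgeR adjusted p = 0.42). *E23*, a gene for an ecdysone-induced ABC transporter, had 3.08 and 2.37 CPM in tumors, 32.7 and 30.1 CPM in Upd and 25.5, 19.1 and 30.1 CPM in wild types, so that here Upd reached or passed the wild types. *Blimp-1*, *Eip74EF*, *Hr39*, *ImpE1* and *ImpE3* were paired only with peaks outside the set.

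Of 16 genes of retinal determination and photoreceptor differentiation, 9 had a lost peak. These were *so* and *eya*, the nuclear partners that commit cells to the eye, *dac*, which acts with them, *toe* and *Sobp*. The others were *sev*, the receptor kinase that specifies the R7 photoreceptor, *rho* and *S*, which release EGF receptor ligands, and *klar*, which positions photoreceptor nuclei. The *so* peak (2R, 3312336 to 3312928) had 13.8 and 24.7 CPM in the tumors, 70.0 and 93.0 CPM in Upd and 88.9, 98.0 and 118 CPM in wild types. The *Sobp* peak had 10.8 and 19.1 CPM in the tumors, 75.7 and 79.7 CPM in Upd and 84.5, 67.9 and 82.2 CPM in wild types. At both, the late tumor was lower than the early one, also by FAIRE-seq, with log2 fold changes of late over early of -1.13 ± 0.39 and -1.16 ± 0.38 that did not pass the test (edgeR adjusted p = 1.00 for each). The *sev* peak (X, 10972960 to 10973868) had 10.1 and 13.8 CPM in the tumors, 83.9 and 94.7 CPM in Upd and 57.8, 86.9 and 65.6 CPM in wild types. For *klar* Upd took a middle place, with 6.38 and 3.44 CPM in tumors, 31.7 and 30.4 CPM in Upd and 78.2, 37.4 and 88.0 CPM in wild types. *eya* had 8.93 and 9.03 CPM in tumors, 32.8 and 44.3 CPM in Upd, and 40.7, 32.2 and 40.9 CPM in wild types. Of the 9 peaks, 8 were called in both Upd samples and *toe* in neither, at 3.61 and 4.09 CPM in tumors and 9.38 and 12.8 CPM in Upd, against 22.2, 20.4 and 23.4 CPM in wild types. The remaining genes of the list, *hth*, *ara*, *rst*, *gl*, *sens*, *eyg* and *run*, were paired with closing peaks outside the set.

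Of 9 genes of Notch signaling and neurogenesis, 6 had a lost peak, among them both Notch ligands. The peak of the ligand gene *Ser* (3R, 23001705 to 23002321) had 12 and 11.6 CPM in tumors, 80.6 and 88.1 CPM in Upd and 149, 101 and 135 CPM in wild types. That of *Dl* (3R, 15132492 to 15132797) had 5.5 and 5.81 CPM in tumors, 35.7 and 34.2 CPM in Upd and 32.1, 40.9 and 36.2 CPM in wild types, so that Upd lay within the wild type range for *Dl* and below it for *Ser* (edgeR adjusted p = 0.98 and 0.59). The peak of *klu*, a zinc finger gene (3L, 10991464 to 10992243), had 20.2 and 21.1 CPM in tumors, 99.7 and 105 CPM in Upd and 147, 119 and 136 CPM in wild types. *bib*, which encodes a channel-like membrane protein of neurogenesis, had 8.29 and 9.25 CPM in tumors, 21.8 and 19.1 CPM in Upd and 31.3, 27.7 and 29.5 CPM in wild types. *neur*, the ubiquitin ligase gene that activates Notch ligands, and *lola* had lower peaks, at 21.6, 17.5 and 26.2 CPM in wild types for *neur* and at 9.14, 8.21 and 9.16 CPM for *lola*.

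Of 11 genes of planar polarity and Wnt signaling, 6 had a lost peak, namely the receptor genes *fz*, *arr* and *otk*, the ligand gene *Wnt2*, the kinase gene *nmo* and the formin gene *DAAM*. The *DAAM* peak (X, 1208684 to 1209211) had 12.4 and 11.8 CPM in tumors, 86.3 and 81.9 CPM in Upd and 72.4, 77.7 and 159 CPM in wild types. The *arr* peak had 12.7 and 10.3 CPM in tumors, 49.3 and 47.5 CPM in Upd and 60.9, 38.4 and 57.8 CPM in wild types. For *otk* the levels were 5.85 and 6.02 CPM in tumors, 31.8 and 31.6 CPM in Upd and 54.4, 38.1 and 35.5 CPM in wild types. At *nmo*, with 3.93 and 3.87 CPM in tumors and 16.4 and 18.5 CPM in Upd, the strains differed, with 38.8, 9.8 and 38.1 CPM in the FRT82, DGRP-208 and Optix-GFP wild types. Its FAIRE-seq levels were 5.71 and 7.04 CPM in tumors and 29.0 and 22.4 CPM in wild types.

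Of 10 genes of appendage and antennal patterning, 7 had a lost peak, among them *Dll*, which specifies distal limb, and *bab1* and *bab2*, which subdivide it. The *bab1* peak (3L, 1095918 to 1096406) had 15.2 and 19.6 CPM in tumors, 67.8 and 81.5 CPM in Upd and 98.5, 89.8 and 126 CPM in wild types, with FAIRE-seq levels of 10.4 and 19.8 CPM in tumors and 52.5 and 42.4 CPM in wild types. The peak of *dsx*, the transcription factor gene of sex determination, had 5.95 and 3.23 CPM in tumors, 30 and 38 CPM in Upd, and 43.8, 44.1 and 54.8 CPM in wild types. *px* had 7.55 and 7.74 CPM in tumors, 57.6 and 57.8 CPM in Upd and 42.6, 83.2 and 57.8 CPM in wild types. At *bowl*, a leg joint gene, the FAIRE-seq levels of 18.8 and 13.7 CPM in tumors came near the 30.4 and 21.8 CPM of wild types, and its log2 fold change over both techniques was -1.41 ± 0.29. By ATAC-seq *bowl* was separated, with 7.66 and 9.46 CPM in tumors, 37.0 and 35.3 CPM in Upd and 40.4, 28.6 and 34.9 CPM in wild types.

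Cuticle and apical matrix genes made up the longest list, and 11 of its 21 genes had a lost peak, a share near the 52.1% of all closing pairs. All 11 peaks were called in both Upd samples, as were 90.3% of the 144 paired lost peaks. The peak of *dyl*, a zona pellucida domain protein that shapes apical extensions (3L, 4304290 to 4305184), had 9.57 and 9.25 CPM in tumors, 112 and 125 CPM in Upd and 135, 139 and 206 CPM in wild types. For the related *dy* the levels were 11.5 and 9.03 CPM in tumors, 91.8 and 98.9 CPM in Upd and 90.0, 71.1 and 153 CPM in wild types. *Np*, a membrane-bound serine protease gene, had 13.3 and 12.9 CPM in tumors, 101 and 94.4 CPM in Upd and 151, 130 and 127 CPM in wild types. At *dyl* and *Np* the wild types, Upd and tumors did not overlap. *Cpr65Ec*, a cuticle protein gene, had 16.2 and 16.6 CPM in tumors, 55.1 and 64.3 CPM in Upd and 112, 90.1 and 99.5 CPM in wild types (log2 fold change of Upd over wild type -0.74 ± 0.20, edgeR adjusted p = 0.45). The other 7 were *Sb*, *tnc*, *Cda4*, *Osi4*, *Osi6*, *Cpr51A* and *Cpr97Ea*. *Osi6* was the highest of these, at 13.5 and 14.2 CPM in tumors, 69.9 and 69.8 CPM in Upd and 69.5, 68.7 and 105 CPM in wild types.

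Of 15 genes of axon guidance and cell adhesion, 6 had a lost peak, and their median log2 fold change of Upd over wild type was 0.04. *Sema-2b*, a secreted guidance cue, had 5.74 and 7.31 CPM in tumors, 54.4 and 63.5 CPM in Upd and 65.7, 65.4 and 46.1 CPM in wild types. *mew*, an integrin alpha subunit gene, had 7.23 and 5.59 CPM in tumors, 61.5 and 52.0 CPM in Upd and 44.2, 62.0 and 55.8 CPM in wild types. The *tutl* peak had 13.9 and 17.9 CPM in tumors, 56.0 and 51.4 CPM in Upd, and 62.9, 69.9 and 69.9 CPM in wild types, and *beat-IIIc* had 9.68 and 16.3 CPM in tumors, 66.5 and 56.7 CPM in Upd and 49.3, 60.0 and 44.0 CPM in wild types. Upd samples overlapped the wild types at *Sema-2b*, *mew* and *beat-IIIc* and lay below them at *tutl*. Of 5 muscle genes 1, *tmod*, had a lost peak, and of 3 small heat shock genes 0, although the study's table pairs all 3 with closing regions.

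**Figure D4:**
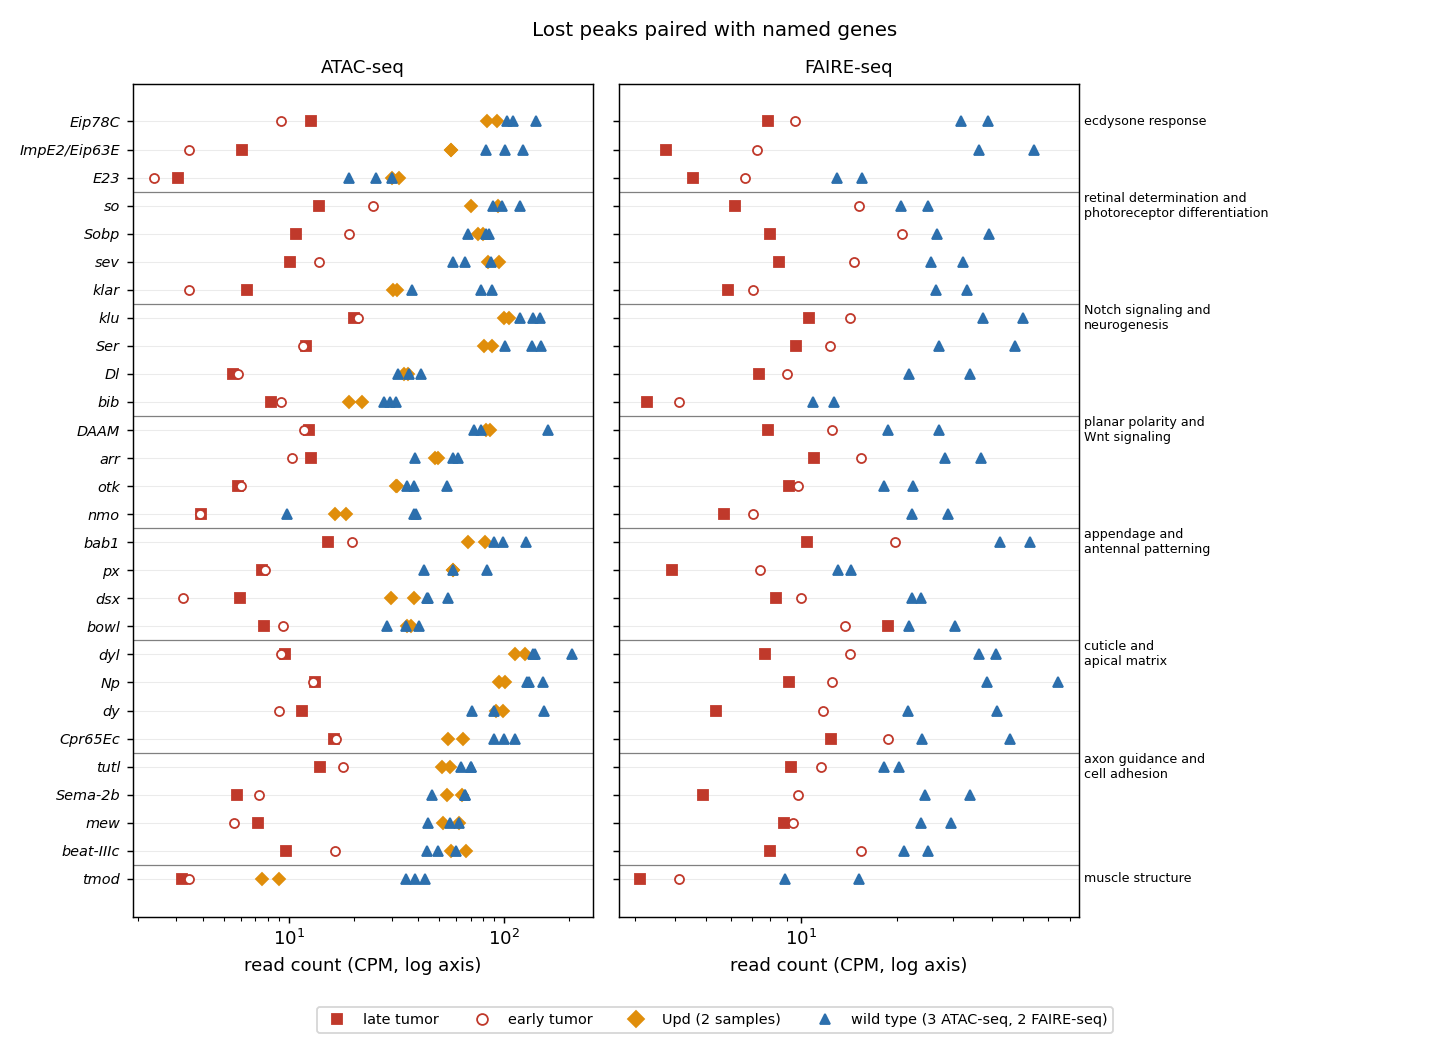
ATAC-seq (left) and FAIRE-seq (right) levels (CPM, log axis) of the lost peaks with the highest wild type level in each gene list, 1 point per sample. Late (filled squares) and early (open circles) tumors lie left of all wild types (triangles) at each peak and in both techniques, and Upd (diamonds) lies between the tumors and the wild types, among the wild types or, as at *E23*, at or above the highest of them. Of the plotted peaks Upd stands furthest below the wild types at *tmod* (log2 fold change -2.22), followed by *klar* (-1.12), ImpE2/Eip63E (-0.83) and *Cpr65Ec* (-0.74).

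The highest of the lost peaks in normal discs was on 3R, 5786579 to 5787849, with 20.3 and 20.4 CPM in the tumors, 205 and 207 CPM in Upd and 325, 282 and 401 CPM in wild types. A second 3R peak, 16605678 to 16606218, had 29.3 and 31.4 CPM in the tumors, 198 and 251 CPM in Upd and 319, 229 and 338 CPM in wild types. On 2R, 19313296 to 19314489, the levels were 27.3 and 30.5 CPM in the tumors, 251 and 213 CPM in Upd and 319, 194 and 304 CPM in wild types. The 10 highest lost peaks were all called in both Upd samples, and 9 were called in both wild type FAIRE-seq samples. Their tumor ATAC-seq levels lay between 7.96 and 46.0 CPM, above the median of the lost peaks in the same tumors (6.38 CPM late and 6.24 CPM early) although no peak was called. One of the 10, the peak of *tna*, which encodes a protein with an SP-RING finger (3L, 10844486 to 10844954), had 18.6 and 20.2 CPM in the tumors, 119 and 127 CPM in Upd and 166, 147 and 192 CPM in wild types.

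Not every lost peak was reduced. Among the 5 with the highest fold change over both techniques, a peak of 196 bp on 2L, 7329047 to 7329242, had 20.1 and 18.1 CPM in the ATAC-seq tumors, 9.38 and 13.2 CPM in Upd and 14.9, 12.8 and 11.8 CPM in wild types, and 9.79 and 14.1 CPM in the FAIRE-seq tumors and 11.2 and 9.72 CPM in the FAIRE-seq wild types. Its tumor levels by ATAC-seq exceeded every wild type. All 5 were between 184 and 241 bp long and had log2 fold changes between 0.10 and 0.37. In all, 2829 of the 2840 (99.6%) had a negative fold change over both techniques, beside 52.3% of all merged and 51.9% of retained peaks. At the 5 with the highest fold change the counts did not follow the absence of a call. None of the 5 passed the test over both techniques (edgeR adjusted p between 0.20 and 0.81).

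At the other extreme, the 5 with the lowest fold change were the ImpE2/Eip63E peak and the 3L peak beside it, 3512474 to 3513021, described below, and 3 others. A 3R peak, 9616039 to 9616433, had 6.06 and 5.16 CPM in the tumors, 84.6 and 91.7 CPM in Upd and 137, 94.6 and 205 CPM in wild types. Another on 3R, 27120033 to 27120464, had 6.7 and 4.3 CPM in the tumors, 70.2 and 77.2 CPM in Upd and 95, 87.2 and 105 CPM in wild types. On 2L, 10791552 to 10792078, the levels were 5.42 and 2.8 CPM in the tumors, 37.2 and 51.1 CPM in Upd and 92.8, 62 and 94.6 CPM in wild types. Upd took a middle place at all 3, below every wild type and above both tumors.

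Lost peaks were spread over all chromosome arms. They were 18.1% of the peaks called in all 3 wild types on 2L, 16.3% on 2R, 18.7% on 3L, 17.5% on 3R, 16.1% on X and 13.5% on chromosome 4. The last share rests on 22 of 163 peaks. The highest lost peak on chromosome 4, 1181081 to 1181769, had 9.99 and 10.8 CPM in tumors, 50.9 and 49.5 CPM in Upd and 68.9, 104 and 58.9 CPM in wild types. In the merged list 781 lost peaks (27.5%) stood directly beside another lost peak, as did 12.7% of the retained peaks. Of these, 610 lost peaks formed pairs, and the longest unbroken runs were 2 runs of 6. Within 5 kb of a lost peak, the 1477 directly neighboring retained peaks had a median log2 fold change of tumor over wild type by ATAC-seq of -0.34, beside -0.01 over all retained peaks.

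Retained and lost peaks lay side by side at the stretches examined, which were chosen after their values were seen. Beside ImpE2/Eip63E, 4 lost peaks followed each other on 3L, from 3512474 to 3514563. The first, 3512474 to 3513021, had 8.40 and 7.96 CPM in tumors, 127 and 128 CPM in Upd and 198, 148 and 185 CPM in wild types. The last, 3514310 to 3514563, had 1.59 and 2.15 CPM in tumors, 39.4 and 31.1 CPM in Upd and 45.8, 44.2 and 31.3 CPM in wild types. The next peak called in the ATAC-seq wild types, 3515620 to 3516163, was at a similar level in all groups, with 74.6 and 91.0 CPM in tumors, 77.4 and 70.7 CPM in Upd and 85.0, 62.5 and 68.9 CPM in wild types. Further along, a peak at 3521297 to 3521611 was called in the 4 tumors and in no Upd or wild type ATAC-seq sample, with 46.2 and 45 CPM in tumors, 2.18 and 3.13 CPM in Upd and 1.48, 3.05 and 1.80 CPM in wild types.

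The stretch of up to 50 kb with the most lost peaks was on 3L, from 10920740 to 10970617, ahead of the *klu* peak. It held 12 lost and 7 retained peaks among 31 merged peaks. The 12 lost peaks had mean levels between 1.71 and 14.8 CPM in ATAC-seq tumors, between 11.2 and 98.7 CPM in Upd and between 13.2 and 166 CPM in wild types, and all 12 were called in both Upd samples. Of the 7 retained peaks between them, 3 were lower and 4 higher in tumors than in wild types, with a median log2 fold change of 0.14. Another 12 merged peaks of the stretch were not called in all wild types, and 5 of these were lower in tumors. The highest lost peak there, 10932892 to 10934067, had a mean of 14.8 CPM in tumors, 98.7 CPM in Upd and 166 CPM in wild types, whereas the retained peak 10927035 to 10928360 had means of 96.6 CPM in tumors, 70.0 CPM in Upd and 88.0 CPM in wild types.

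**Figure D5:**
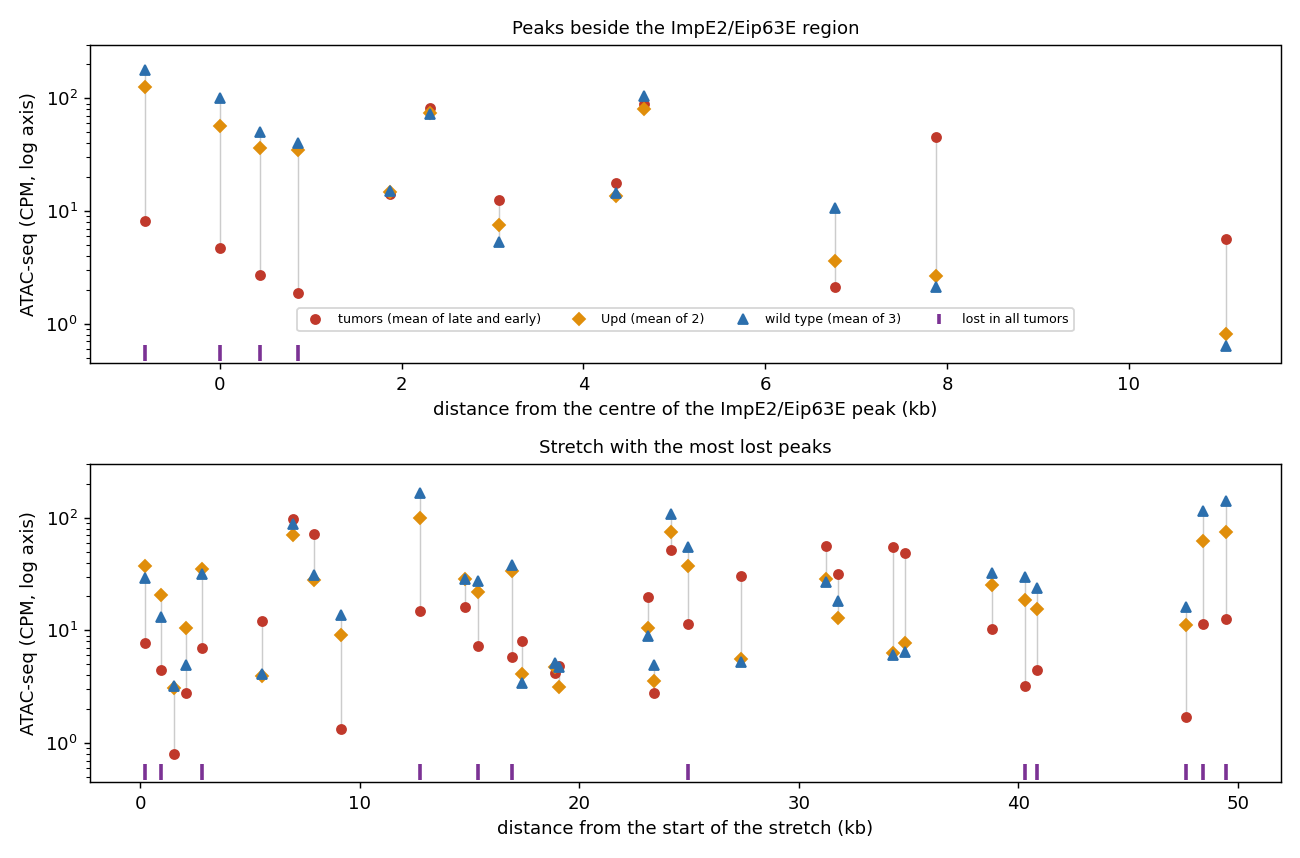
Mean ATAC-seq level (CPM, log axis) of every merged peak beside the ImpE2/Eip63E peak (top) and in the stretch with the most lost peaks (bottom), against distance in kb. Purple ticks mark lost peaks. In the top panel 4 lost peaks are low in tumors only. Of the peaks to their right, 3515620 to 3516163 is at a similar level in all groups. The peak 3520224 to 3520452 is highest in wild types, and 3521297 to 3521611 is high in tumors only. In the bottom panel 12 lost peaks lie among retained ones.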

How the data were processed

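The study's methods state that adapters were trimmed, that bowtie2 aligned the reads to dm3 (FlyBase release 5), that Wolbachia and poorly mapped reads were removed, and that ATAC-seq reads were shifted to the point of cutting. The authors called peaks per sample with MACS2, merged the peaks and counted reads in them with htseq-count. The authors deposited raw counts without normalization and peak positions without scores. Reads have no molecular identifiers. Positions count from 1.

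Here, counts were scaled by TMM and tested with edgeR 4.0.16 in R 4.3.3 (quasi-likelihood, robust dispersion, Benjamini-Hochberg over all merged peaks with reads, adjusted p under 0.01). The technique was a term where both were fitted. Tests were checked on simulated data. Alternatives were DESeq2 1.42.0, its size factors, total counts, a filter on low counts, no technique term and leaving out each sample. Named peaks were up to 4 of each gene list, the highest in wild type, the 10 highest in wild type, the 5 extremes of 2 fold changes (at least 10 reads on average) and the highest on chromosome 4. The lost peaks, lists and tests were chosen with earlier results of these data known. Nothing says that samples came from separate cultures, so p-values measure only the spread between these samples.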

Additional observations from a re-analysis of the deposited data

How the results depend on the processing

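The number of members of the set depended on the rule. It was 4662 when calls in at least 2 of the 3 wild types sufficed, 353 when both wild type FAIRE-seq samples had to be called as well, and 174 when no Upd sample might be called either. Requiring 40% of the CTCF peak left 49 overlaps instead of 77. Without the technique term 1128 lost peaks were lower in tumors over both techniques, instead of 2007. Over all 36506 merged peaks 1866 were lower without this term, instead of 4545. Leaving out 1 sample gave between 1175 and 2172 over both techniques, between 1079 and 2109 by ATAC-seq and between 10 and 408 by FAIRE-seq, where 1 was higher without FRT82 and 0 to 1 over all such fits. Over all merged peaks, leaving out 1 sample gave between 2351 and 5264 lower over both techniques. Within 1 technique the count over all merged peaks rose and fell with that of the lost peaks across such fits. The shifts were thus not limited to the lost peaks. At lost peaks the FAIRE-seq count was 197 with DESeq2, which gave an adjusted p for only 1745 of them, and 214 with total counts, instead of 131. Over all merged peaks, 399 of 24474 were lower with DESeq2 and 460 of 36506 with total counts, instead of 285. For Upd against wild type DESeq2 called 4 lower, beside 31 of all merged peaks tested. Total counts gave 0, beside 3 of all. Leaving out 1 wild type gave between 0 and 1, beside 2 to 11 of all. The cause of these shifts was not tested. None of the 56 lost peaks named by the rules above reversed a call in the fit over both techniques or in Upd against wild type. In both comparisons some calls were weaker or stronger, 19 and 2 of 784 over both techniques. Peaks added after their values were seen are not among the 56. With 2 tumors per technique, of 2 stages, replicate error within a stage is unknown. No paired analysis was possible because only the Upd samples carry replicate numbers in the labels.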
